A study of Mus musculus with 16 samples.

Results

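A group of 8 genes that restrain or accompany the cell cycle, Cdkn2a, Cdkn2b, Cdkn2c, Cdkn2d, Cdkn1a, Cdkn1b, E2f2 and Melk, were followed in whole mouse embryos with and without the histone acetyltransferase KAT6A. They were chosen by gene symbol, as the INK4 and CIP/KIP inhibitors together with a pair of cell cycle genes through which KAT6A is known to hold back senescence, and all 8 of them were found among the 26411 genes listed. RNA-sequencing counts came from 16 embryos at E9.5, with 4 embryos in each of 4 genotypes on a mixed FVB x BALB/c background. The Kat6a- allele is a null from which a run of Kat6a exons is deleted. Tg(Kat6b) is a bacterial artificial chromosome that holds Kat6b, the close relative of Kat6a, and was inserted in several copies in a single founder. Embryos that were Kat6a+/+Kat6b+/+ are called wild type here. Those lacking Kat6a with normal Kat6b, Kat6a-/-Kat6b+/+, are called Kat6a null. Those with the transgene on an intact Kat6a background, Kat6a+/+Tg(Kat6b), are called Kat6b transgenic, and those that combine both changes, Kat6a-/-Tg(Kat6b), null transgenic. The comparisons ask whether loss of KAT6A altered these genes in the embryo, and whether they differed when KAT6B was overexpressed in its absence.

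INK4 proteins bind CDK4 and CDK6 and keep them from cyclin D, so that the retinoblastoma protein stays active and E2F factors stay bound. CIP/KIP proteins act on a wider range of cyclin and CDK complexes, and CDKN1A is the classical target of p53. In senescent cells products of the Cdkn2a locus accumulate and E2F target genes are silenced, and in cultured fibroblasts KAT6A is known to delay this state by sustaining genes that repress the locus.

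Cdkn2a has 2 start sites in the RefSeq table. Transcripts from the upstream start encode ARF, which protects p53 from MDM2, and transcripts from the downstream start encode the INK4 protein p16, while the deposited counts sum both. Their start regions are shown because a count of this gene cannot tell the products apart. For the E2F-linked genes E2f2 and Melk a start region that holds an E2F-like motif is shown, which for E2f2 is 1 of the 2 listed. All 4 stretches run 5′ to 3′ on the gene's strand, from 250 bases before to 50 bases after the start, and are RefSeq sequence on GRCm38.p6. Capitals mark matches to TTTNNCG, searched on both strands.

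Cdkn2a, ARF start, chr4:89294570-89294869 (minus strand): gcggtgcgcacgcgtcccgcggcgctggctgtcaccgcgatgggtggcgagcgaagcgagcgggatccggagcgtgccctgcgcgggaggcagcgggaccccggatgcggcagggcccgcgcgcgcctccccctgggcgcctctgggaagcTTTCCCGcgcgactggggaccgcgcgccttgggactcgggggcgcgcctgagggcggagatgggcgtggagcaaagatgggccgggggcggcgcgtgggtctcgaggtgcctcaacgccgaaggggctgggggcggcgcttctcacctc
Cdkn2a, p16 start, chr4:89282143-89282442 (minus strand): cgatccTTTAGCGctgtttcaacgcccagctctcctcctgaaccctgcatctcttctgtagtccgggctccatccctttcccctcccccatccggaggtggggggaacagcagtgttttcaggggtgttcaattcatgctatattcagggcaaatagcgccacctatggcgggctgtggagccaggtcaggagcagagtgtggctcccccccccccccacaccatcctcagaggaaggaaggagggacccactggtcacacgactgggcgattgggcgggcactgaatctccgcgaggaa
E2f2, chr4:136172024-136172323 (plus strand): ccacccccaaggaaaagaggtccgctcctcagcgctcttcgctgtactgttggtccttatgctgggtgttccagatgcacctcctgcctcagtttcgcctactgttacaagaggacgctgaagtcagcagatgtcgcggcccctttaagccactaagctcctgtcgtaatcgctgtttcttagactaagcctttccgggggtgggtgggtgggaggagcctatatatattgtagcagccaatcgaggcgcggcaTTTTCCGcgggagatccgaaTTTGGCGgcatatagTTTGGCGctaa
Melk, chr4:44300667-44300966 (plus strand): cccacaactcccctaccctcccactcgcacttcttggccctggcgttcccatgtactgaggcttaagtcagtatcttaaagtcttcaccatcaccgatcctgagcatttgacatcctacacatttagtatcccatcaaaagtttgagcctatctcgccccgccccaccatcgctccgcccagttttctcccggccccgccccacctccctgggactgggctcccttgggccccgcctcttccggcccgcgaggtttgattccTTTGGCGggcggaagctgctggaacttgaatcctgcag

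The 2 Cdkn2a starts lie 12427 bases apart. The ARF window holds 45 CpG dinucleotides and the p16 window 12, against a median of 7 over all windows of the table. The E2f2 window shown holds 3 matches to TTTNNCG, and each of the other windows shown holds 1. A second E2f2 window, chr4:136180532-136180831, is not shown and holds 0. Of the 12 windows listed for the 8 genes, 6 hold the motif, as do 16.79% of the 32841 windows in the table. The motif itself contains a CpG, and these shares were not matched for CpG content. A match is a description of the letters and not a binding site.

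On GRCm39, 5 of the 8 genes lie on chromosome 4. Cdkn2a (Entrez Gene 12578, 89192708 to 89212890) and Cdkn2b (89223204 to 89229276) are neighbours on the minus strand, 10313 bases apart, and Cdkn2c (109517957 to 109524386) lies on the same strand. Melk (44249931 to 44364701) and E2f2 (135899585 to 135923368) lie on the plus strand. Cdkn2d is on chromosome 9 (21199700 to 21202727), Cdkn1a on chromosome 17 (29309936 to 29319701) and Cdkn1b on chromosome 6 (134897364 to 134902476). Exons of genes on the opposite strand cover 12.5% of the exon bases that GENCODE annotates to Cdkn1a, 7.74% of those of Cdkn2c, 5.96% of those of Cdkn2d and 5.21% of those of Cdkn1b. Whether the counting used strand is not given in the sources used here, so reads in those stretches may belong to either gene.

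Total counts per embryo ranged from 14407277 to 45665680. Of the 8 genes, 7 passed the filter on low counts and were tested among 15679 genes, and Cdkn2a did not pass it. Kat6b showed the transgene, with 42.6 to 48.2 CPM (counts scaled to a common library size with TMM factors) in wild-type and 155 to 227 CPM in Kat6b transgenic embryos. Kat6a did not check the null allele, since counts over the whole gene were at 176 to 211 CPM in wild-type and 189 to 218 CPM in Kat6a null embryos and exons were not counted separately. All null transgenic embryos came from litters of their own, and Kat6a null and Kat6b transgenic embryos shared no litter with each other. Litter and genotype cannot be told apart in comparisons of null transgenic embryos with any other genotype. Kat6a null and Kat6b transgenic embryos each shared litters with wild-type embryos. With litter in the fit they can be compared with each other only through those wild-type embryos, and that difference was not tested. Macrophage markers moved with genotype. Summed over the 7 genes of the list they were at 12.5 to 21.0 CPM in Kat6a null, 6.57 to 12.1 CPM in wild-type, 6.42 to 8.83 CPM in Kat6b transgenic and 7.78 to 12.9 CPM in null transgenic embryos, with none of the 7 at 0 throughout a genotype, and 4 of the 6 tested rose in Kat6a null vs. wild-type embryos (edgeR). In the same comparison, where 1.88% of all tested genes were called, 1 of 5 somite and 1 of 2 tested trophoblast markers fell. None of the tested blood, yolk sac, neural, heart or endothelial markers was called. The summed yolk sac markers were nonetheless at 6.09 to 13.95 CPM in Kat6a null and 34.3 to 48.3 CPM in null transgenic embryos, without overlap. In wild-type embryos this sum was at 12.5 to 51.9 CPM and in Kat6b transgenic embryos at 3.38 to 44.7 CPM. In bulk samples fewer cells of a type and less RNA per cell cannot be told apart.

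In wild-type embryos the levels per gene length spanned a wide range, with Melk and Cdkn1b at its top and Cdkn2b and Cdkn2a at its bottom. Melk, a mitotic kinase of proliferating cells, was at 43.1 ± 0.310 RPKM (SD, n = 4; CPM divided by the listed gene length in kilobases). Cdkn1b (p27), which opposes CDK2, was at 26.8 ± 1.18 RPKM. Cdkn2d (p19 of the INK4 family) was at 11.3 ± 0.995 RPKM, Cdkn1a (p21) at 6.74 ± 0.507 RPKM and E2f2, an activating E2F factor, at 6.03 ± 0.638 RPKM. Cdkn2c (p18) was at 1.38 ± 0.285 RPKM, Cdkn2b (p15) at 0.285 ± 0.169 RPKM and Cdkn2a at 0.0758 ± 0.0876 RPKM. Between neighbours in this order the values of the 4 embryos did not overlap, except for Cdkn1a and E2f2 and for Cdkn2b and Cdkn2a. The targets of the INK4 proteins were at 582 ± 16.7 RPKM for Cdk4 and 4.38 ± 0.358 RPKM for Cdk6. Among their cyclin partners Ccnd2 was at 134 ± 2.50 RPKM, Ccnd3 at 81.5 ± 3.05 RPKM and Ccnd1 at 51.7 ± 1.86 RPKM.

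**Figure D1:**
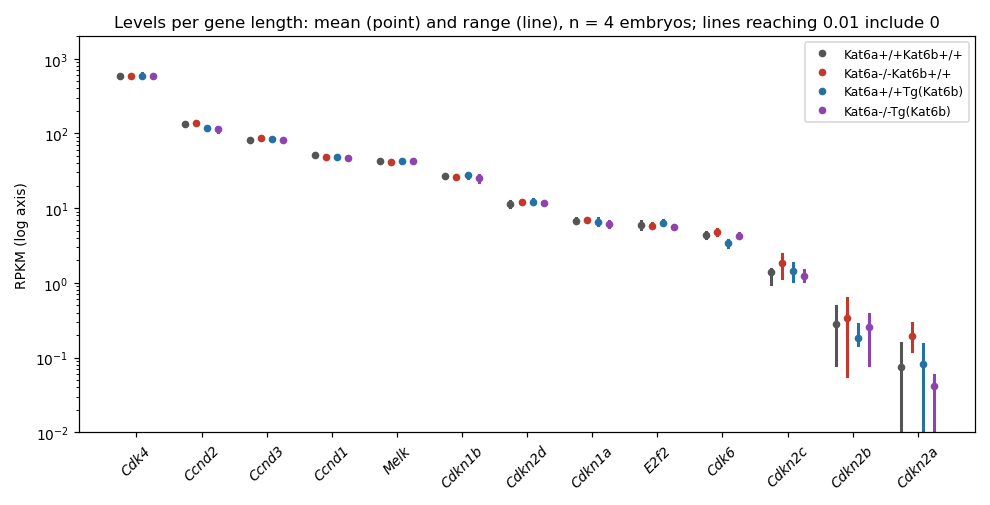
Levels per gene length (RPKM, log axis) of the 8 genes, the kinases Cdk4 and Cdk6 and the D cyclins in the 4 genotypes, with the mean as a point and the range of 4 embryos as a line. In wild-type embryos the levels run from 582 RPKM for Cdk4 to 0.0758 RPKM for Cdkn2a, with Melk the highest of the 8 genes at 43.1 RPKM.

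Most of the INK4 transcript was that of Cdkn2d. Per gene length the 4 INK4 genes summed to between 12.3 and 15.04 RPKM over the 16 embryos, with a median of 13.4 RPKM. Cdkn2d made up 80.0% to 91.0% of this sum and Cdkn2c 7.41% to 16.4%. Cdkn2b made up 0.404% to 4.73%, and Cdkn2a at most 2.18%.

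No tested member passed the test between genotypes. In Kat6a null vs. wild-type embryos 0 of the 7 passed an FDR of 0.05 (edgeR quasi-likelihood test, Benjamini-Hochberg over all genes), where 1.88% of all tested genes were called. Each other pair of genotypes also gave 0 of 7. There, the share of all genes called was 0.14% for Kat6b transgenic and 0.67% for null transgenic vs. wild type, 7.14% for null transgenic vs. Kat6a null, 3.41% for null transgenic vs. Kat6b transgenic and 12.7% for Kat6b transgenic vs. Kat6a null. A test over the 4 genotypes at once called 0 of 7 members and 11.5% of all genes. The test of whether the effect of Kat6a loss differed with the transgene called 0 of 7 and 0.153%. DESeq2 likewise called 0 of 7 in every comparison. It gave no adjusted p for Cdkn2c in Kat6b transgenic vs. wild type, which counted as not called. Limma-voom called Cdkn2c in Kat6b transgenic vs. Kat6a null embryos and 0 of 7 in the rest. At an unadjusted p under 0.05 edgeR had Cdkn2c in Kat6a null vs. wild type, in null transgenic vs. Kat6a null and in the test over all genotypes, Cdkn2c and E2f2 in Kat6b transgenic vs. Kat6a null, and 0 of 7 in the other comparisons. The median log2 fold change of the 7 was 0.06 in Kat6a null vs. wild type and -0.05 in null transgenic vs. Kat6a null, beside 0.003 and -0.005 over all genes.

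The values of most members overlapped between genotypes. Against wild type 0 of 7 did not overlap in any group, beside 7.97% of all genes for Kat6a null, 4% for Kat6b transgenic and 7.1% for null transgenic embryos, and the same held for 0 of 7 in Kat6b transgenic vs. Kat6a null embryos, beside 15.8%. In null transgenic vs. Kat6a null embryos Cdkn1a did not overlap, 1 of 7 beside 15.2% of all genes, nor did Cdkn2a, which was not among those tested. In null transgenic vs. Kat6b transgenic embryos E2f2 did not overlap, 1 of 7 beside 10.5%.

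**Figure D2:**
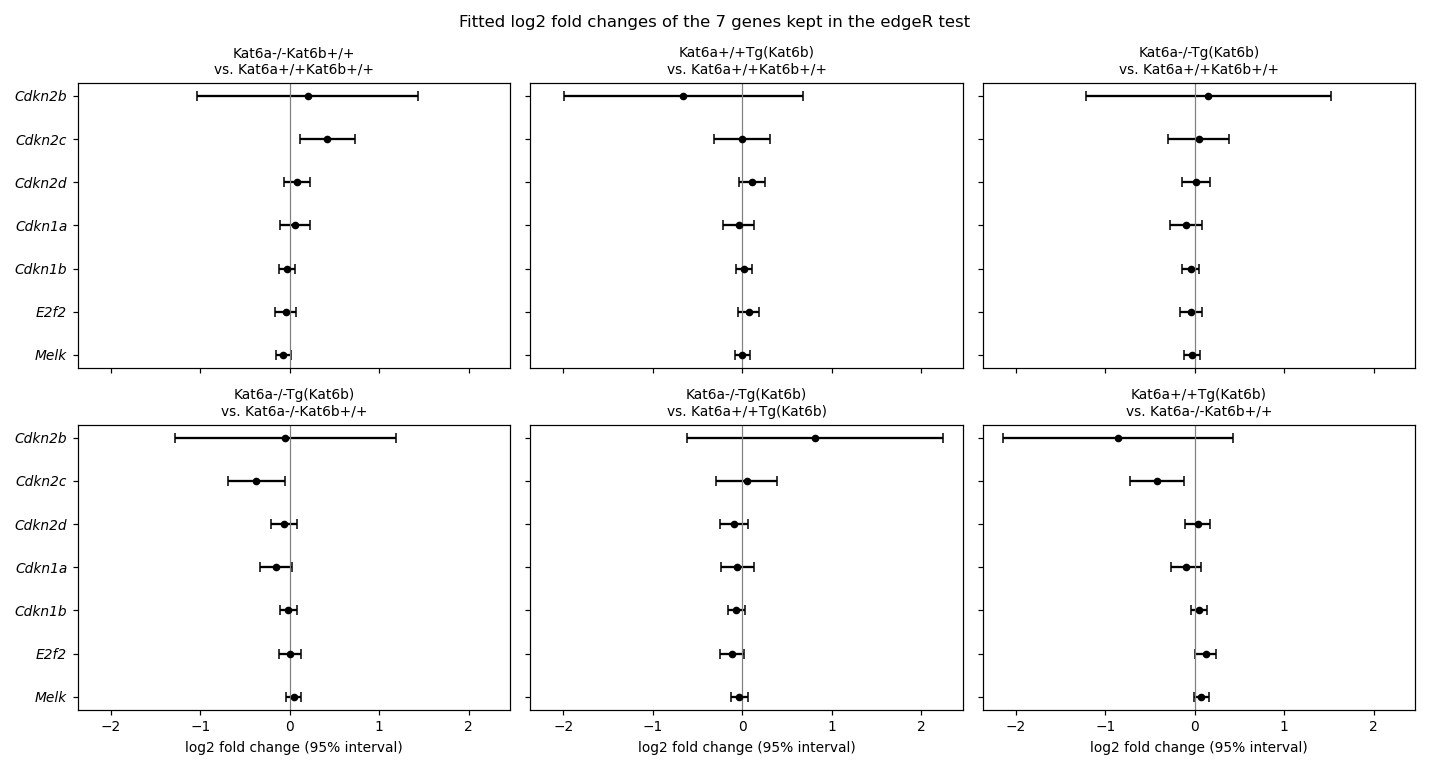
Fitted log2 fold changes with 95% intervals of the 7 tested genes for each pair of genotypes. Cdkn2c lies at 0.42 in Kat6a null vs. wild-type embryos and at -0.42 in Kat6b transgenic vs. Kat6a null embryos, and the intervals of Cdkn2b are the widest.

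Cdkn2a was close to the limit of detection. Counts of replicates 1 to 4 were 0, 3, 4 and 0 in wild-type, 6, 9, 3 and 5 in Kat6a null, 1, 4, 4 and 0 in Kat6b transgenic and 2, 0, 1 and 3 in null transgenic embryos. In all, 45 reads were counted on the gene in 16 embryos. A count of 0 allows up to 3 counts, which is 0.131 CPM in the first wild-type embryo and 0.206 CPM in the fourth, for counting error only.

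Every Kat6a null embryo had counts of Cdkn2a, and their range overlapped that of wild-type embryos. The mean was 0.221 ± 0.0833 CPM in Kat6a null and 0.0861 ± 0.0995 CPM in wild-type embryos (SD, n = 4), from 23 and 7 counts in all. The ratio of the summed counts per library size was 2.36 (95% interval for counting error 0.979 to 6.50). An exact permutation test over embryos gave a two-sided p of 0.143, or 0.286 adjusted over the 6 pairs of genotypes. In null transgenic embryos the mean was 0.0478 ± 0.0319 CPM from 6 counts, a ratio of 0.245 (0.0818 to 0.620) to Kat6a null embryos. For this pair the exact permutation test gave a two-sided p of 0.0286, the smallest possible with 4 embryos against 4, and an adjusted p of 0.171. With no filter on low counts, edgeR gave an FDR of 0.171 for the same pair, with a log2 fold change of -2.14, and 0.561 for Kat6a null vs. wild type.

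Cdkn2b, the neighbour of Cdkn2a whose product answers TGF-beta signalling, was also rare. It was at 0.392, 0.110, 0.402 and 0.686 CPM in replicates 1 to 4 of the wild type and at 0.885, 0.0782, 0.532 and 0.395 CPM in the Kat6a null group. Values were 0.207, 0.213, 0.206 and 0.393 CPM in the Kat6b transgenic and 0.541, 0.400, 0.370 and 0.110 CPM in the null transgenic group. The highest and the lowest of the 16 values were both those of Kat6a null embryos, and all genotypes overlapped. From 2 to 17 counts lie behind each value. The log2 fold change in Kat6a null vs. wild-type embryos was 0.20 with a 95% interval from -1.04 to 1.44 (edgeR FDR = 0.911), that is from 0.487 to 2.71 on the linear scale, and a difference within those bounds was not detectable at this depth. Over the alternatives the value ran from -0.29 without Kat6a null replicate 1 to 0.80 without Kat6a null replicate 2.

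Cdkn2c, whose product p18 binds CDK6 in particular, varied most among the members with at least 39 counts in every embryo. It was at 3.44, 2.15, 3.44 and 3.43 CPM in replicates 1 to 4 of the wild type and at 2.66, 3.78, 5.55 and 4.59 CPM in the Kat6a null group. Values were 3.39, 2.39, 4.21 and 2.97 CPM in the Kat6b transgenic and 3.05, 2.49, 3.39 and 2.35 CPM in the null transgenic group. The 3 highest Kat6a null embryos lay above all wild-type embryos and the fourth within their range, and a single Kat6b transgenic embryo exceeded the wild-type values. In Kat6a null vs. wild-type embryos the log2 fold change was 0.42 (SE 0.148, 95% interval 0.11 to 0.73; edgeR FDR = 0.164), which does not pass the threshold. The gene was at a log2 fold change of -0.37 in null transgenic vs. Kat6a null embryos (SE 0.152; edgeR FDR = 0.138) and of -0.42 in Kat6b transgenic vs. Kat6a null embryos (SE 0.145; edgeR FDR = 0.0578). These comparisons share the Kat6a null embryos. The log2 fold change in null transgenic vs. wild-type embryos was 0.05, with an interval from -0.29 to 0.39 (edgeR FDR = 0.944).

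Whether Cdkn2c passed the threshold in Kat6b transgenic vs. Kat6a null embryos depended on single embryos and on the tool. Without Kat6a null replicate 1 the edgeR FDR was 0.0268 and without null transgenic replicate 2 it was 0.0452, while limma-voom gave an adjusted p of 0.0456. Over all alternatives the adjusted p of this pair ran from 0.0268 to 0.359. In null transgenic vs. Kat6a null embryos the FDR was 0.0378 without wild-type replicate 2, the lowest of the 16 embryos, and up to 0.295 in the other alternatives. In Kat6a null vs. wild-type embryos Cdkn2c was not called in any alternative, with log2 fold changes from 0.30 to 0.52 and adjusted p from 0.119 to 0.744.

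Each genotype held as many males as females. Among the Kat6a null embryos sex and litter went together, and Cdkn2c moved with both. Kat6a null embryos from litter 801, both female, were at 2.66 and 3.78 CPM against 3.44 CPM in the wild-type male of that litter. Those from litter 803, both male, were at 5.55 and 4.59 CPM against 2.15 CPM in the wild-type male of that litter. Over all embryos, with genotype in the fit, the log2 difference was 0.33 (male minus female, SE 0.136; edgeR FDR = 0.998), with means of 3.72 CPM in males and 2.94 CPM in females. This comparison was chosen after seeing the data and called 0 of 7 members and 0.0765% of all genes, with Cdkn2c and Cdkn1b at an unadjusted p under 0.05. In the main fit the first surrogate variable was negative in all males and positive in all females. With sex as a covariate in place of both surrogate variables, the log2 fold change of Cdkn2c in Kat6a null vs. wild-type embryos was 0.38 (edgeR FDR = 0.420). With 1 surrogate variable and no sex term it was 0.40 (edgeR FDR = 0.391). With litter as a block, which 12 embryos allowed, the log2 fold change of Cdkn2c in Kat6a null vs. wild-type embryos was 0.51 (edgeR FDR = 0.744). That value rests on the single wild-type embryo in each of litters 801 and 803, and the fit held neither sex nor surrogate variables. The summed macrophage markers were at 12.5, 17.1, 21.0 and 19.1 CPM in replicates 1 to 4 of the Kat6a null group. They were at 8.44, 6.57, 12.1 and 7.48 CPM in the wild type and at 6.61, 8.83, 8.58 and 6.42 CPM in the Kat6b transgenic group. In the null transgenic group they were at 12.9, 7.78, 10.4 and 9.64 CPM. In Kat6b transgenic vs. Kat6a null embryos, where Cdkn2c came closest to the threshold, markers of other tissues were called as well. There 5 of 6 tested macrophage and 3 of 4 endothelial markers fell, and of 8 neural markers 5 rose and 2 fell, beside 12.7% of all genes called. In the same pair 1 of 6 heart, 1 of 5 somite and 1 of 2 tested trophoblast markers rose. None of the 7 blood or 5 tested yolk sac markers was called. The part of sex, litter and these cell types in the Cdkn2c values was not tested beyond these fits.

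**Figure D3:**
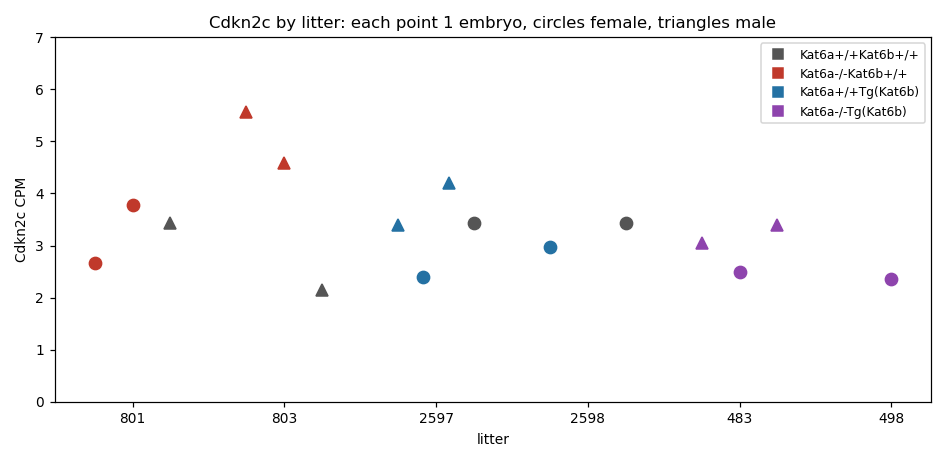
Cdkn2c in CPM (linear axis from 0) for each of the 16 embryos by litter, coloured by genotype, with circles for females and triangles for males. In litter 803 both Kat6a null males, at 5.55 and 4.59 CPM, lie above the wild-type male at 2.15 CPM, whereas in litter 801 the Kat6a null females, at 2.66 and 3.78 CPM, lie on either side of the wild-type male at 3.44 CPM.

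Cdkn2d, the INK4 gene with the highest level here, was steady. It was at 16.1, 15.02, 13.2 and 13.9 CPM in replicates 1 to 4 of the wild type and at 14.5, 15.3, 15.4 and 16.1 CPM in the Kat6a null group. Values were 17.1, 14.5, 15.6 and 14.5 CPM in the Kat6b transgenic and 14.4, 16, 14.7 and 15.3 CPM in the null transgenic group. All genotypes overlapped, and the log2 fold change in Kat6a null vs. wild-type embryos was 0.08 with a 95% interval from -0.07 to 0.22 (edgeR FDR = 0.639).

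The CIP/KIP members did not pass the test either. Cdkn1a, through which p53 arrests the cycle, was at 12.9, 14.8, 14.4 and 12.8 CPM in replicates 1 to 4 of the wild type and at 14.2, 14.4, 13.9 and 14.5 CPM in the Kat6a null group. Values were 12.3, 12.5, 15.3 and 13.8 CPM in the Kat6b transgenic and 13.4, 11.2, 13.7 and 12.1 CPM in the null transgenic group. Each null transgenic value lay below each Kat6a null value, in a pair where 15.2% of all genes did not overlap. The log2 fold change between these genotypes was -0.15 (SE 0.0841; edgeR FDR = 0.280). In Kat6a null vs. wild-type embryos it was 0.06, with an interval from -0.11 to 0.23 (edgeR FDR = 0.784).

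Cdkn1b, which holds cells in quiescence and is controlled largely through the stability of its protein, was at 66.6, 61.1, 63.4 and 67.1 CPM in replicates 1 to 4 of the wild type and at 61.3, 59.9, 63.4 and 66.8 CPM in the Kat6a null group. Values were 67.5, 61.8, 67.8 and 66.8 CPM in the Kat6b transgenic and 65.2, 53.6, 66.6 and 57.1 CPM in the null transgenic group. The 2 lowest of the 16 values were those of the female null transgenic embryos. The log2 fold change in Kat6a null vs. wild-type embryos was -0.03, with an interval from -0.12 to 0.06 (edgeR FDR = 0.790).

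E2f2 and Melk, which are expressed in cycling cells, did not pass the test. E2f2 was at 28.7, 26.4, 32.2 and 33.4 CPM in replicates 1 to 4 of the wild type and at 28.4, 27.4, 32.0 and 28.3 CPM in the Kat6a null group. Values were 31.2, 31.4, 34.5 and 31.3 CPM in the Kat6b transgenic and 28.7, 28.1, 27.9 and 26.8 CPM in the null transgenic group. Each null transgenic embryo lay below each Kat6b transgenic embryo, in a pair where 10.5% of all genes did not overlap. The log2 fold change between these genotypes was -0.12 (SE 0.0627; edgeR FDR = 0.329), and it was 0.12 in Kat6b transgenic vs. Kat6a null embryos (SE 0.0572; edgeR FDR = 0.179). In Kat6a null vs. wild-type embryos it was -0.05, with an interval from -0.17 to 0.07 (edgeR FDR = 0.746).

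Melk varied least among the 8 genes. It was at 107, 109, 108 and 108 CPM in replicates 1 to 4 of the wild type and at 98.6, 100.2, 103 and 108 CPM in the Kat6a null group. Values were 110.5, 102, 110.4 and 107 CPM in the Kat6b transgenic and 102, 109, 102 and 111 CPM in the null transgenic group. In Kat6a null embryos 3 of 4 values lay below all wild-type values, and the log2 fold change was -0.07 (SE 0.0400, interval -0.16 to 0.01; edgeR FDR = 0.404). On the linear scale the lower end of that interval is 0.898.

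**Figure D4:**
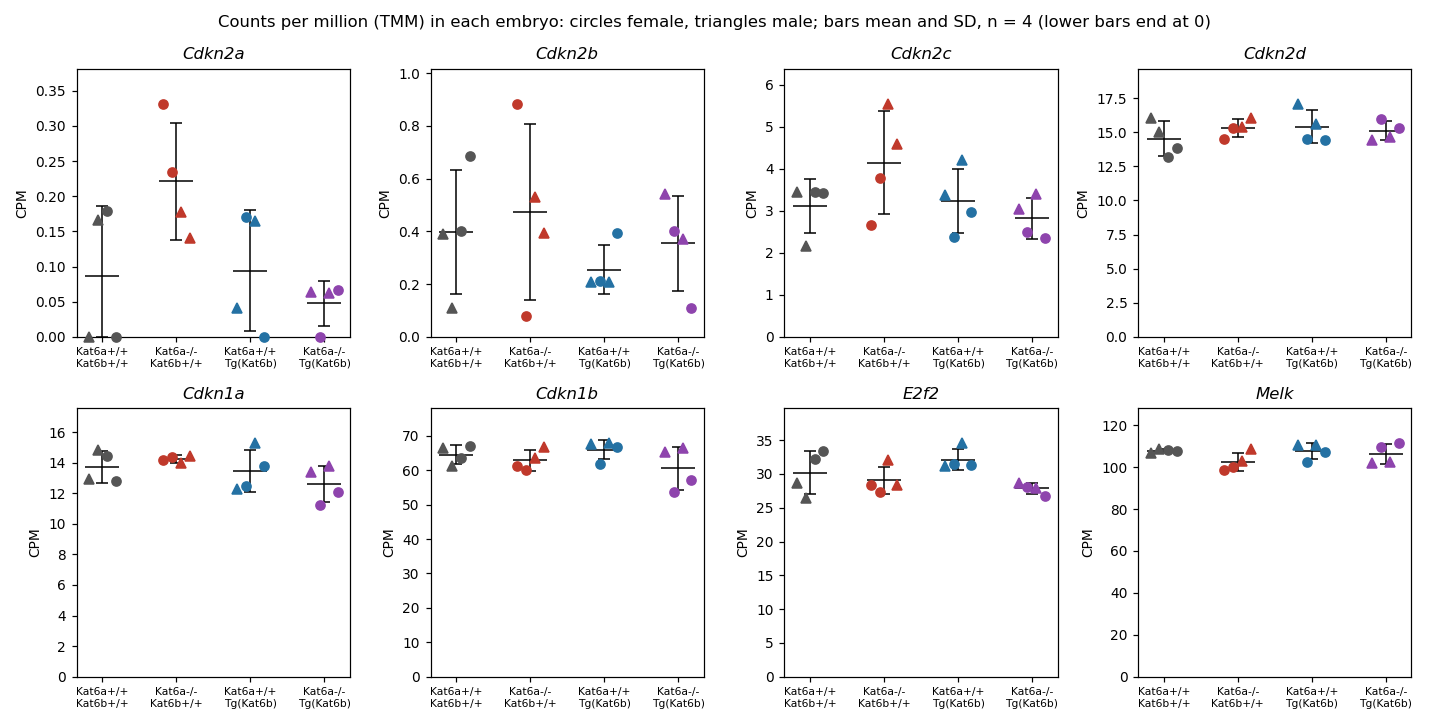
CPM of the 8 genes in each of the 16 embryos by genotype (linear axes), with circles for females, triangles for males, and the mean and SD of 4 embryos as bars. Null transgenic and Kat6a null embryos do not overlap for Cdkn1a, beside 15.2% of all tested genes, nor for Cdkn2a, which did not pass the filter. Null transgenic and Kat6b transgenic embryos do not overlap for E2f2, beside 10.5%. Cdkn2c spreads from 2.66 to 5.55 CPM in Kat6a null embryos.

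Over the 16 embryos the coefficient of variation was 3.79% for Melk, 6.44% for Cdkn2d, 6.51% for Cdkn1b, 8.26% for Cdkn1a and 8.29% for E2f2. It was 27.0% for Cdkn2c, 59.3% for Cdkn2b and 87.3% for Cdkn2a, the genes with the fewest counts. Between the members the strongest Pearson correlations of log2 CPM were 0.533 for Cdkn2c and Cdkn1b and 0.523 for Cdkn1b and E2f2 (n = 16 embryos, whose values share library and genotype). The 2 genes most like each member were sought among genes whose average log2 CPM reached 0, of which 14036 were compared (14037 for Cdkn2b). A search of that many genes over 16 embryos yields high correlations by chance, so these values are a description and were not tested. Those most like Cdkn1b were Lhx3 (r = 0.915) and Trib2 (r = 0.913), and those most like E2f2 Pmepa1 (r = 0.907) and Syt11 (r = 0.901). For Cdkn2c they were Mapt (r = 0.865) and Tmem238 (r = 0.864), and for Cdkn1a Ass1 (r = 0.866) and Lrrc32 (r = 0.848). For Cdkn2d they were Htra2 (r = 0.818) and Sirt3 (r = 0.801), for Cdkn2b Hecw1 (r = 0.809) and Gm46735 (r = 0.780), and for Melk Rab3b (r = 0.768) and Pabir2 (r = 0.761).

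Of the genes that control the Cdkn2 locus, Bmi1 rose in Kat6a null embryos. BMI1 is a Polycomb protein that silences Cdkn2a. Bmi1 was at 102 ± 5.55 CPM in wild-type, 119 ± 2.77 CPM in Kat6a null, 107 ± 3.44 CPM in Kat6b transgenic and 108 ± 5.01 CPM in null transgenic embryos (SD, n = 4). Its log2 fold change in Kat6a null vs. wild-type embryos was 0.23 (SE 0.0404; edgeR FDR = 0.00381). It was the only one of 19 listed repressors of the locus to be called, beside 1.88% of all genes. The median of those 19 was -0.04. The call held in 26 of 27 alternatives, with log2 fold changes from 0.19 to 0.27. With litter as a block, over 12 embryos, the value was 0.26 with an FDR of 0.0908. Cdc6 and Ezh2, genes through which KAT6A is known to repress the locus in fibroblasts, had log2 fold changes of -0.07 each (edgeR FDR = 0.379 and 0.217), and 0 of the 6 listed activators were called.

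Among the CDK and RB/E2F genes, E2f3 fell in Kat6a null embryos. E2f3, an activating E2F factor, was at 116 ± 5.07 CPM in wild-type and 103 ± 3.30 CPM in Kat6a null embryos (log2 fold change -0.17, SE 0.0406; edgeR FDR = 0.0351). It was the only one of 19 genes of the RB, E2F and DREAM list to be called, beside 1.88% of all genes. The call held in 15 of 27 alternatives, with log2 fold changes from -0.19 to -0.13 over all of them. With litter as a block, over 12 embryos, the value was -0.13 with an FDR of 0.505. Rb1, the retinoblastoma gene itself, had a log2 fold change of -0.002 (FDR 0.991). Of the 11 CDK and cyclin genes 0 were called, with log2 fold changes of -0.10 for Ccnd1 (FDR 0.232), 0.08 for Ccnd3 (FDR 0.256), 0.13 for Cdk6 (FDR 0.444) and 0.01 for Cdk4 (FDR 0.932). Of the 3 other CDK inhibitors and relatives, which include Cdkn1c, 0 were called.

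The genes that act downstream did not pass the test in Kat6a null vs. wild-type embryos, where 1.88% of all genes were called, a share at which few calls or none fall in lists of this size. None of the 30 replication genes driven by E2F was called, with a median log2 fold change of -0.02, and none of the 25 mitotic genes, with a median of -0.05. None of the 23 tested of 24 genes of the p53 pathway was called (median -0.02). Trp53 itself was at -0.07 (edgeR FDR = 0.279) and Mdm2, its inhibitor and target, at -0.10 (FDR 0.226). Of 30 secreted factors of senescent cells 16 were expressed highly enough to be tested, and 0 were called (median -0.04), as were 0 of 10 other senescence markers (median -0.01). In Kat6b transgenic vs. Kat6a null embryos 12.7% of all genes were called. There 6 of the 25 mitotic genes rose and 2 fell, 32% of the list, and 3 of the 30 replication genes rose. Of the 11 CDK and cyclin genes 2 rose and 2 fell, 36.4% of the list, and Cdk6 was at -0.49 (edgeR FDR = 0.000889). In the p53 pathway 3 of 23 rose and 1 fell, and in the RB, E2F and DREAM list 2 of 19 rose. Secreted factors rose in 2 and fell in 2 of 16 cases. Of 19 repressors and of 6 activators of the locus 1 each rose and 1 each fell. Cdkn1c fell, and 0 of 10 senescence markers were called.

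Ccnd2 fell in both genotypes that carried the transgene, and Cdkn1c in null transgenic embryos. Ccnd2, the D cyclin with the highest level here, was at 771 ± 14.4 CPM in wild-type, 795 ± 16.6 CPM in Kat6a null, 675 ± 29.4 CPM in Kat6b transgenic and 655 ± 35.3 CPM in null transgenic embryos (SD, n = 4). Against wild type it fell by 0.20 on the log2 scale in Kat6b transgenic (edgeR FDR = 0.0268) and by 0.22 in null transgenic embryos (edgeR FDR = 0.00532). The former call held in 15 of 27 alternatives, with log2 fold changes from -0.21 to -0.15 over all of them, and the latter in 26 of 26. With litter as a block, over 12 embryos, the former value was -0.19 with an FDR of 0.999. Cdkn1c (p57), the imprinted relative of Cdkn1a and Cdkn1b, was at 327 ± 15.6 CPM in wild-type, 304 ± 6.91 CPM in Kat6b transgenic and 279 ± 32.3 CPM in null transgenic embryos. It fell by 0.18 on the log2 scale in null transgenic vs. wild-type embryos (edgeR FDR = 0.0444), a call held in 10 of 26 alternatives. Its log2 fold change was -0.12 in Kat6b transgenic embryos (edgeR FDR = 0.222). Cdk6 was at -0.36 there (FDR 0.101).

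In null transgenic vs. Kat6a null embryos, where 7.14% of all genes were called, genes of most lists were called. Of the RB, E2F and DREAM list 3 of 19 rose, E2f3 by 0.14, the repressor E2f8 by 0.20 and the DREAM subunit Lin9 by 0.27 on the log2 scale. Of the 11 CDK and cyclin genes Ccna2 rose by 0.12 and Ccnd2 fell by 0.27, and of the 3 other inhibitors Cdkn1c fell by 0.20. Of the 30 replication genes Orc1 rose by 0.22 and Pcna fell by 0.16, and of the 25 mitotic genes Kif20a rose by 0.13. Of the 23 p53 pathway genes Mdm2 rose by 0.20 and Sesn2 by 0.27, while Bbc3, which promotes apoptosis, fell by 0.44 and Zmat3 fell by 0.23. Ets2, 1 of 6 activators of the Cdkn2 locus, rose by 0.16 and Timp2, 1 of 16 secreted factors, by 0.21. Of the 10 senescence markers Hmgb1 rose by 0.20, though its processed gene copies make its count uncertain, and Bcl2l1 fell by 0.17. None of the 19 repressors of the locus was called. The edgeR FDRs of these genes ran from 0.000235 for Ccnd2 to 0.0495 for E2f3. Those of Ccnd2, Mdm2 and Hmgb1 stayed under the threshold in 26 of 26 alternatives, while those of Bbc3 did in 17, Zmat3 in 16, Bcl2l1 in 15, Kif20a in 14, E2f3 in 11 and Pcna in 9. The other genes named here stayed under it in 19 to 25. Markers of other tissues were called in the same comparison, with a decrease of 1 of 6 tested macrophage markers (Mrc1), 2 of 8 neural markers (Nes and Tubb3) and 1 of 5 somite markers (Meox1). None of the 5 tested yolk sac markers was called. Their list summed to 34.3 to 48.3 CPM in null transgenic and 6.09 to 13.95 CPM in Kat6a null embryos. The part of these tissues in the differences was not tested.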

How the data were processed

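Libraries were made from RNA of whole embryos with the TruSeq kit, and Rsubread mapped the paired reads to mm39. The authors deposited counts, whole numbers of reads per gene without normalization, together with gene lengths, and the submitters' processing notes name featureCounts. The annotation release and strand setting are not given in the sources used here. The members and gene lists were chosen with earlier results of these data known. From the counts, edgeR 4.0.16 (R 4.3.3) fitted a quasi-likelihood model with robust moderation to the 16 embryos, with TMM factors (0.985 to 1.02), filterByExpr (minimum count 10), 2 surrogate variables (sva 3.50.0), p-values adjusted over 15679 genes and an FDR threshold of 0.05. DESeq2 1.42.0 and limma-voom (limma 3.58.1) were alternatives. Cdkn2a was tested by exact permutation over embryos, and its ratios carry 95% intervals for counting error. Replicates are separate embryos. Named were the 8 members, the genes of the other lists past the threshold against wild type or in null transgenic vs. Kat6a null embryos, a fixed set of regulators such as Cdc6, Ezh2 and Trp53, and the 2 genes closest to each member.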

Additional observations from a re-analysis of the deposited data

Results flagged for a closer look

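The values of each member were screened in each genotype for an embryo far from the other 3 (Dixon's test), and 4 of 32 groups held one, where chance gives about 1 in 20. Cdkn2c was at 2.15 CPM in wild-type replicate 2, against 3.43 to 3.44 CPM in the other wild-type embryos. Without this embryo the log2 fold change in Kat6a null vs. wild type was 0.30 in place of 0.42 (edgeR FDR = 0.437). E2f2 was at 34.5 CPM in Kat6b transgenic replicate 3, against 31.2 to 31.4 CPM. Cdkn2b was at 0.393 CPM in Kat6b transgenic replicate 4, against 0.206 to 0.213 CPM, from 9 counts against 5 in each other embryo. Cdkn2a was at 0 CPM in null transgenic replicate 2, against 0.0617 to 0.0659 CPM, a difference of 1 to 3 counts.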

How the results depend on the processing

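The count of members called was 0 in every comparison and stayed at 0 in 212 of 216 alternatives. It was 1 in Kat6b transgenic vs. Kat6a null embryos with limma-voom, and it ranged from 0 to 1 when each embryo was left out in turn, there and in null transgenic vs. Kat6a null embryos. The gene was Cdkn2c in each case. Of 1316 alternative fold changes 1312 stayed on their side of the threshold, and 81 that were not called changed sign. All 48 alternative wild-type levels moved by less than 1 SD. Dropping a single embryo cannot shift the mean of its group by 1 SD. For alternatives that left out a wild-type embryo the outcome was therefore fixed, and they do not test the stability of the levels. Of 575 alternative values of called genes of the other lists, added after seeing the data, 434 stayed past the threshold and 0 changed sign. Same-numbered embryos correlated from -0.255 to 0.215, above 0.1 in 10 of 24 pairs. These correlations do not settle whether the numbers pair embryos. Embryos of the same number came from several litters, and the main fit did not pair them. With the replicate block 0 members were called throughout, and the genes called went from 535 to 286 in null transgenic vs. Kat6b transgenic embryos. The number of all genes called in Kat6a null vs. wild type went from 295 to 95 with no surrogate variables and to 18 with litter as a block, and in Kat6b transgenic vs. wild type from 22 to 219 with DESeq2. DESeq2 called 244 in place of 105 genes in null transgenic vs. wild type, 882 in place of 535 in null transgenic vs. Kat6b transgenic embryos and 138 in place of 24 for the interaction. With no surrogate variables 614 in place of 1119 genes were called in null transgenic vs. Kat6a null embryos and 1094 in place of 1805 over all genotypes, and a fit of those genotypes alone called 1163 in place of 1984 in Kat6b transgenic vs. Kat6a null embryos. With each embryo left out in turn the number ran from 137 to 432 in Kat6a null vs. wild type, from 1 to 108 in Kat6b transgenic vs. wild type, from 39 to 210 in null transgenic vs. wild type, from 492 to 1671 in null transgenic vs. Kat6a null, from 165 to 876 in null transgenic vs. Kat6b transgenic and from 1249 to 2123 in Kat6b transgenic vs. Kat6a null embryos. It ran from 16 to 81 for the interaction and from 912 to 2088 over all genotypes. Litter could not be fitted for null transgenic embryos. For the other genotypes the litter block held no surrogate variables, and each of their litters had a single wild-type embryo. Depth limits Cdkn2b, with at most 17 counts in an embryo, and Cdkn2a, with at most 9.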
